A study of Caenorhabditis elegans with 18 samples.

Results

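The transcripts of whole Caenorhabditis elegans hermaphrodites at the fourth and last larval stage (L4) were compared between the strain lin-35(n745) and the laboratory wild type N2. The comparison rests on the 6 of 18 Affymetrix arrays whose titles name the L4 stage, 3 for each strain, and on all 22548 probe sets that are not array controls. The other 12 arrays measured the same strains in embryos and in first-stage larvae (L1), 3 arrays a group, and are used below to show where the L4 difference departs from the difference at the other stages. N2 carries no mutation. lin-35(n745) differs from it, as far as the labels say, by the n745 allele, a nonsense mutation of lin-35. All animals were grown at 20 °C on NGM plates, an agar medium, with OP50, the standard food strain of Escherichia coli, in populations synchronized to the stage. The 3 samples of a group came from separate cultures, per the design text. The mutation is present in every cell, so no tissue is singled out, and the hour within L4 at which animals were collected is not given in the labels.

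lin-35 encodes the only pocket protein of the worm, the counterpart of the retinoblastoma tumour suppressor. Pocket proteins join E2F and DP factors and a set of partner proteins in the DREAM complex, which sits at promoters and keeps cell cycle genes silent in cells that have stopped dividing. In worms the same complex also keeps germline genes silent in the soma, and lin-35 was found as a synMuv gene, one of a pair of redundant gene classes whose joint loss gives extra vulvae. L4 is the stage at which the germline makes sperm and turns to oocytes and the vulva takes shape.

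Values are given on the log2 scale of the deposited table, on which 1 unit is a 2-fold change, and each difference is lin-35(n745) minus N2 ± its standard error with n = 3 arrays a strain. The error and the adjusted p come from a limma fit over all 18 arrays, adjusted over the 22548 probe sets, and a gene is called higher or lower when its adjusted p is under 0.05. A gene is represented by 1 probe set, and levels of different genes are not set against each other because probe sets differ in brightness. Whole worms were measured, so fewer cells of a type and less RNA per cell cannot be told apart.

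The arrays of each strain resembled one another more than they resembled those of the other strain. Across probe sets the correlation was 0.995 to 0.9973 within a strain and 0.9833 to 0.9856 between strains, and 0 pairs of arrays held identical values. The sperm and embryonic markers read here fitted the L4 label in both strains, but they do not place the strains at the same point within L4. The major sperm protein gene msp-19, which is expressed once sperm are made, read 11.97, 11.93 and 12.02 in N2 and 12.38, 12.41 and 12.63 in lin-35(n745), and in N2 it was 4.91 units higher at L4 than at L1. The embryonic genes med-1 and pes-10 stayed between 3.17 and 3.89 on all 6 arrays, under the lower quartile of 4.43. Among other stage and timing genes given below, the adult-onset genes col-19 and vit-2 were lower in the mutant, while lin-28 and lin-29 were not called. Whether the strains differed in age within L4 was not tested.

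The lin-35 transcript itself was lower in the mutant. It read 7.68, 7.71 and 7.60 on the N2 arrays and 6.49, 6.43 and 6.32 on the lin-35(n745) arrays. Every mutant array was below every wild-type array, and the difference was -1.25 ± 0.15, a 2.38-fold lower level, with adjusted p = 4.35e-06. Its other probe set was lower by a smaller amount (-0.77 ± 0.14, adjusted p = 0.000415).

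At L4, 1751 probe sets were higher in lin-35(n745) (7.77%) and 1687 were lower (7.48%), so that 15.2% of all probe sets were called. Counted as genes, 1411 of 17118 were higher (8.24%) and 1388 were lower (8.11%). The balance changed with the size of the difference, as 360 genes were higher by at least 2-fold (2.1%) and 123 were lower by at least 2-fold (0.719%). The 3 arrays of one strain did not overlap the 3 of the other for 1406 of the higher genes (8.21% of all genes) and 1372 of the lower ones (8.01%). Without lin-35(n745) array 2 the number of lower probe sets was 1070, and no other single array moved either number by more than 1.5 times.

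**Figure D1:**
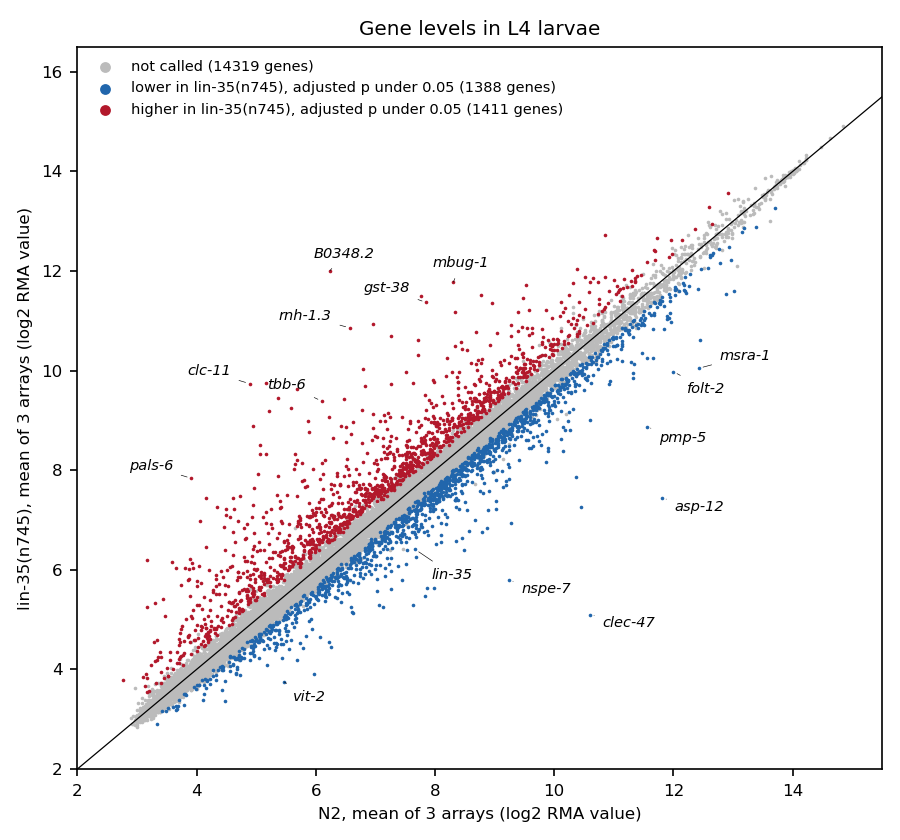
Mean log2 level of each of 17118 genes in N2 (horizontal axis) and in lin-35(n745) (vertical axis) at L4, 3 arrays each, with the line of equal levels. The 1411 higher genes (red) reach farther from the line than most of the 1388 lower genes (blue), and the 14319 uncalled genes (grey) lie along it.

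The 25 genes that rose most read 3.07 to 8.41 in N2 and 6.08 to 12.04 in the mutant. B0348.2, a gene with no assigned name, read 6.54, 6.01 and 6.18 in N2 and 11.98, 12.02 and 12.04 in lin-35(n745), a 54.6-fold rise (5.77 ± 0.35, adjusted p = 2.53e-10). clc-11, a member of the claudin-like family of membrane proteins, read 4.99, 4.8 and 4.87 against 9.82, 9.57 and 9.83, a 28.9-fold rise (4.85 ± 0.28, adjusted p = 1.12e-10). rnh-1.3, one of the worm's ribonuclease H genes, whose products cut RNA paired with DNA, read 6.69, 6.46 and 6.56 against 10.99, 10.81 and 10.77. The arrays of the strains did not overlap for any of the 3 genes, and the rise of rnh-1.3 was 4.29 ± 0.14 (adjusted p = 4.8e-14).

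Among the 25 largest rises were genes of several kinds. clec-60 and clec-61, C-type lectin genes of chromosome II known for their induction by bacterial infection, rose by 3.97 ± 0.25 and 3.98 ± 0.13. gst-38, a glutathione S-transferase gene, read 8.09, 7.85 and 7.61 in N2 and 11.31, 11.26 and 11.55 in the mutant, and rose 11.5-fold. tbb-6, a beta-tubulin gene that N2 kept low at 6.16, 6.08 and 6.06, read 9.67, 9.30 and 9.21 in lin-35(n745). It was thus 9.8-fold higher (3.29 ± 0.33, adjusted p = 3.58e-07). try-5, which encodes a serine protease known from male seminal fluid, rose by 3.27 ± 0.15 in these hermaphrodites. mbug-1 rose by 3.47 ± 0.12 and srlf-34 by 3.24 ± 0.71. The error of srlf-34 is wide because it is estimated over arrays of all stages, and its L4 arrays stood at 6.78 to 6.82 in N2 and at 10 to 10.11 in the mutant.

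The 4 genes that fell most all read above the array's upper quartile of 8.16 in N2. clec-47, another C-type lectin gene, read 10.54, 10.59 and 10.68 in N2 and 4.83, 5.33 and 5.13 in the mutant, a 45.4-fold fall (-5.51 ± 0.23, adjusted p = 1.92e-12). asp-12, an aspartyl protease gene, read 11.79, 11.77 and 11.86 against 7.49, 7.42 and 7.41, a 20.6-fold fall (-4.37 ± 0.15, adjusted p = 4.8e-14). nspe-7, of a nematode-specific peptide family, went from 9.29, 9.17 and 9.27 to 6.09, 5.70 and 5.59. It fell 10.9-fold, and Y17D7B.7, with no assigned name, fell 9.12-fold. In N2 all 4 genes were higher at L4 than at L1, by 2.87 ± 0.23 for clec-47, 4.37 ± 0.15 for asp-12, 4.42 ± 0.31 for nspe-7 and 4.40 ± 0.11 for Y17D7B.7. These N2 differences share the N2 L4 arrays with the strain comparison.

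**Figure D2:**
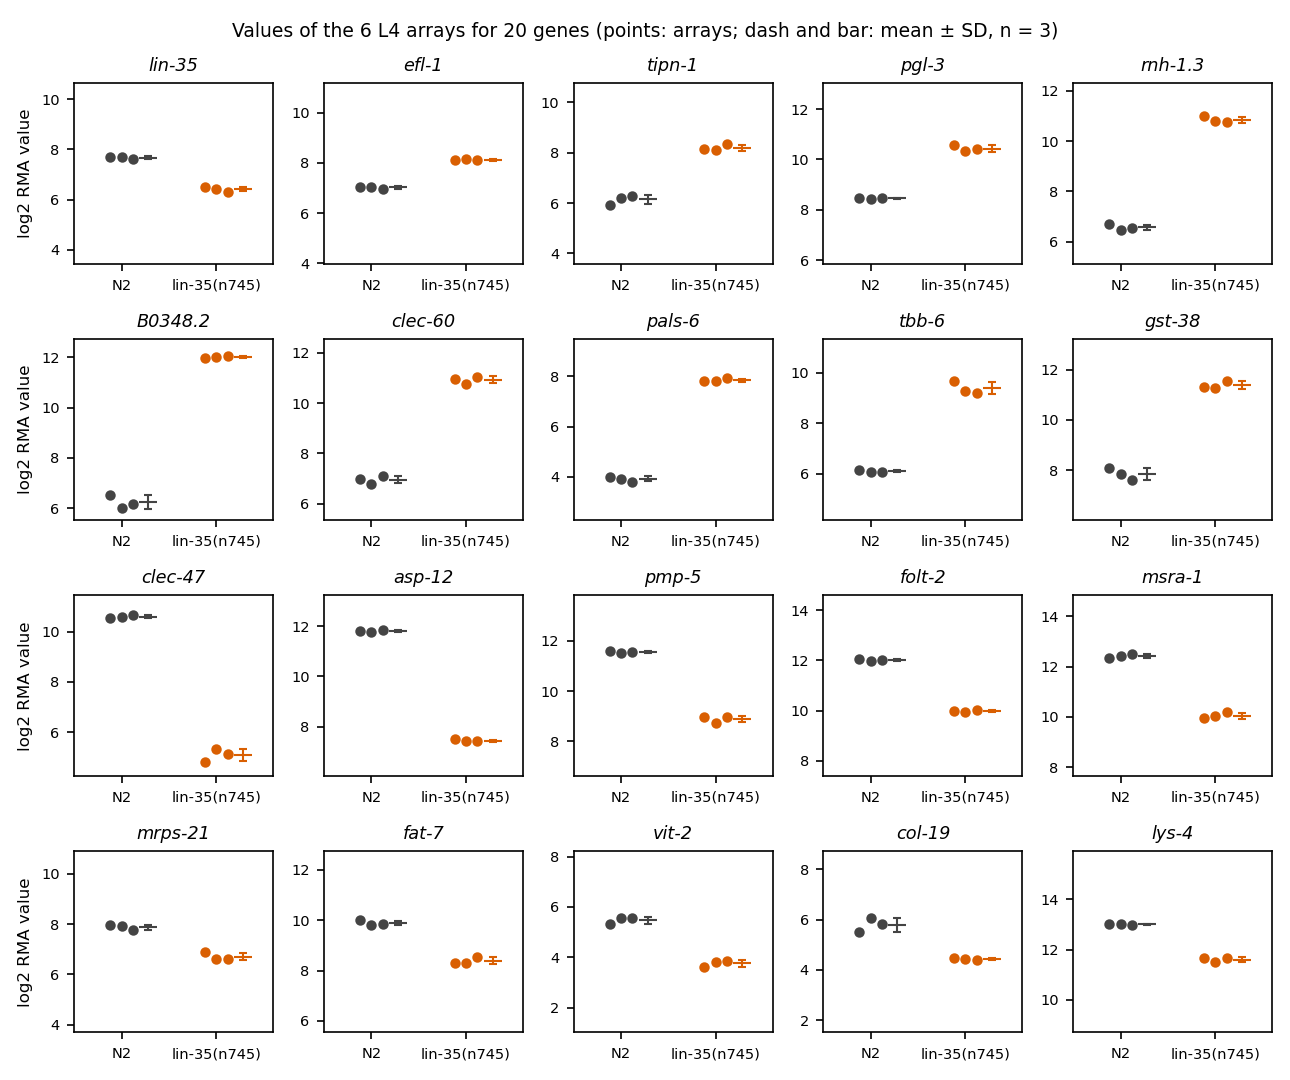
Log2 level of 20 genes on each L4 array of N2 and lin-35(n745), with a dash and bar for the mean ± SD (n = 3); each panel covers a log2 range of equal width. The strains' arrays stand apart in all panels, upward for genes such as B0348.2, rnh-1.3 and tbb-6 and downward for genes such as clec-47, asp-12 and pmp-5.

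Most genes that copy DNA were higher. Of 46 measured genes of DNA replication and licensing, 33 were higher in lin-35(n745) (71.7%, against 8.24% of all genes) and 0 were lower, and the median difference was 0.497 against -0.0345 over all genes. tipn-1, which stabilises stalled replication forks, read 5.94, 6.21 and 6.3 in N2 and 8.15, 8.11 and 8.33 in the mutant, and rose 4.12-fold (2.04 ± 0.12, adjusted p = 2.12e-10). lig-1, the ligase that joins the short fragments of the lagging strand, rose by 1.28 ± 0.11. mcm-7, a subunit of the helicase that unwinds DNA, rose by 1.22 ± 0.11 (9.70, 9.63 and 9.56 against 11.06, 10.74 and 10.77). orc-5, part of the complex that marks origins, rose by 1.17 ± 0.10, and sld-2, which helps fire them, by 1.14 ± 0.14. Smaller rises were found for the sliding clamp pcn-1 (0.55 ± 0.11) and the large subunit of ribonucleotide reductase, rnr-1 (0.51 ± 0.10). The helicase subunit mcm-2 did not pass the test (0.17 ± 0.10, adjusted p = 0.306).

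Among 20 regulators of entry into S phase, 6 were higher (30%) and 1 was lower. Both partners of LIN-35 in DNA binding were among the higher ones. efl-1, the E2F gene, read 7.04, 7.05 and 6.97 in N2 and 8.10, 8.17 and 8.11 in the mutant, 2.15-fold higher (1.11 ± 0.12, adjusted p = 6.18e-07), and its other probe set rose by 0.59 ± 0.12. dpl-1, the DP gene, rose by 0.96 ± 0.14. skpt-1, whose product targets the inhibitor of cyclin-dependent kinases for degradation, rose by 0.56 ± 0.10, and the G1 kinase cdk-4 by 0.47 ± 0.09. cye-1, the cyclin E gene, did not pass the test (0.30 ± 0.10, adjusted p = 0.0639), but did when limma was fitted to the 6 L4 arrays alone (adjusted p = 0.0336). The 1 lower gene, cdc-25.2, lost its call without N2 array 1, without N2 array 3, and without lin-35(n745) array 2 or 3.

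Mitotic genes rose in a similar share. Of 69 measured genes of mitosis and chromosome segregation, 41 were higher (59.4%) and 0 were lower, with a median of 0.457. kbp-3, part of the outer kinetochore that holds microtubules, read 9.53, 9.37 and 9.32 in N2 and 11.05 to 11.39 on the 3 mutant arrays, and rose 3.42-fold (1.78 ± 0.12, adjusted p = 1.26e-09). mis-12, another kinetochore gene, rose by 1.35 ± 0.10. The condensin genes hcp-6 and capg-2, whose products compact chromosomes, rose by 1.35 ± 0.12 and 1.19 ± 0.11. cdk-1, the mitotic kinase, read 8.97, 9.02 and 9.09 in N2 and 10, 9.83 and 10 in the mutant, a 1.88-fold rise (0.91 ± 0.10, adjusted p = 2.26e-06). The arrays of the strains did not overlap for kbp-3 or cdk-1.

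DNA repair and apoptosis genes were higher for 19 of 70 measured (27.1%) and lower for 1. cku-80, part of the clamp that holds broken DNA ends, rose by 1.23 ± 0.12, and exo-1, a nuclease that trims them, by 1.2 ± 0.11. polh-1, a polymerase that copies past damage, rose by 1.17 ± 0.13, and parp-1, which marks breaks with poly(ADP-ribose), by 1.03 ± 0.15. All of these are repair genes. Of 13 genes of the ced family, which holds apoptosis genes, 1 was higher (7.69%, near the 8.24% of all genes) and 0 were lower. That gene, ced-1 (0.49 ± 0.16), had a second probe set that was not called (0.4 ± 0.15). Of 46 synMuv, DREAM and chromatin repressor genes, 12 were higher (26.1%) and 2 were lower, lin-35 among the latter. The higher ones included the DREAM subunit lin-9 (0.78 ± 0.12), the synMuv gene lin-36 (0.92 ± 0.15) and mes-4 (0.88 ± 0.11), a histone methyltransferase of the germline. lin-8, a synMuv gene of the other class, was lower (-0.50 ± 0.13, adjusted p = 0.00875). Of 30 histone genes, 3 were higher and 3 lower (1 without lin-35(n745) array 2), 10% in each direction and close to the 8.24% and 8.11% of all genes. The variant gene htz-1 rose by 0.66 ± 0.10, and his-71, which encodes a variant of histone H3, fell by 0.71.

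**Figure D3:**
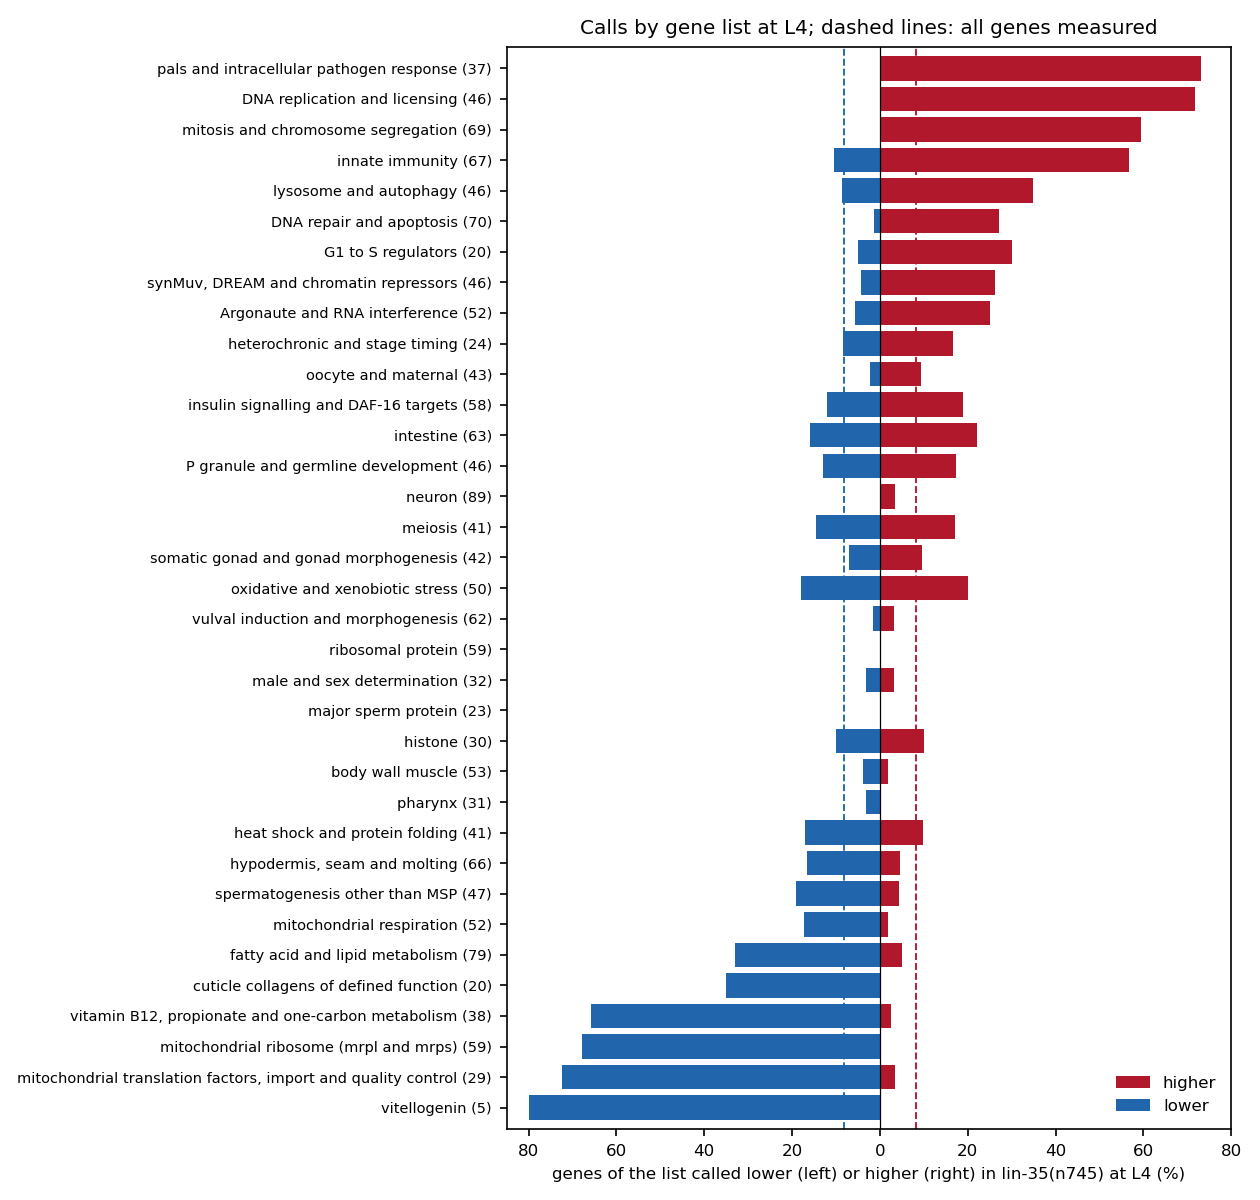
Share of the measured genes of each list called lower (bars to the left) and higher (bars to the right) in lin-35(n745) at L4, in percent; dashed lines mark the shares over all 17118 genes (8.11 and 8.24) and numbers in parentheses count the measured genes. DNA replication, the pals and intracellular pathogen response genes, mitosis and innate immunity lie far to the right, and vitellogenin, mitochondrial translation and vitamin B12 genes far to the left.

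Germline genes went both ways. Of 46 genes of P granules (the RNA-protein granules of germ cells) and germline development, 8 were higher (17.4%) and 6 lower (13%), with a median of -0.00815. pgl-3 and pgl-1, which build the granules, led the higher ones. pgl-3 read 8.48, 8.42 and 8.45 in N2 and 10.57, 10.32 and 10.41 in the mutant, a 3.95-fold rise (1.98 ± 0.10, adjusted p = 2.21e-11), and pgl-1 rose by 1.06 ± 0.11. The helicase gene glh-4, which also encodes a granule protein, read 8.39, 8.39 and 8.51 in N2 and 7.63, 7.36 and 7.79 in the mutant. It fell by 0.84 (SE 0.11, adjusted p = 8.27e-06), the RNA-binding gene daz-1 fell by 0.53, and fog-3, which directs germ cells towards sperm, fell by 0.48. The 8 higher genes became 5 without N2 array 2, without N2 array 3 or without lin-35(n745) array 2.

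The 41 measured meiosis genes held 7 higher (17.1%) and 6 lower ones (14.6%), with a median of -0.0564. syp-1, of the synaptonemal complex that zips paired chromosomes, rose 3.19-fold (1.67 ± 0.14, adjusted p = 1.99e-08). him-3, of the axis those chromosomes are built on, read 10.24, 10.11 and 10 in N2 and 11.44, 11.34 and 11.38 in the mutant, a rise of 1.27 ± 0.12. Other axis and break genes were lower. htp-3, also an axis gene, read 8.85, 9.0 and 8.86 against 8.37, 8.07 and 8.24 and fell by 0.68 (adjusted p = 0.000151), and dsb-1, needed to make meiotic breaks, fell by 0.69 (adjusted p = 0.00186).

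Gap junction genes of the gonad likewise split. inx-22, which acts between the somatic sheath and oocytes, read 7.74, 7.80 and 7.61 in N2 and 10.76, 10.55 and 10.54 in the mutant, a 7.45-fold rise (2.90 ± 0.19, adjusted p = 6.09e-10). inx-21, its neighbour on chromosome I, rose by 1.65. inx-8 and inx-9, the sheath's own subunits, fell by 1.05 and 0.79, and inx-14, their germline partner, fell by 0.54. These 3 were the lower genes among 42 of the somatic gonad, where 4 were higher (1 without N2 array 1, and 2 without N2 array 3 or lin-35(n745) array 2 or 3). These shares, 7.14% lower and 9.52% higher, were close to those over all genes, and the 3 lower became 5 with each array centred and 6 with the L4 arrays alone. The oocyte and maternal list, with 43 genes measured, had 4 higher members (9.3%, also near the 8.24% of all genes) and 1 lower, against 7 and 6 with the L4 arrays alone. The 4 became 1 without lin-35(n745) array 2 and 2 without N2 array 1, N2 array 3 or lin-35(n745) array 3, and the 1 became 2 without N2 array 1.

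None of the 23 measured major sperm protein genes was called by limma, 2 were higher at an unadjusted p under 0.05, and their median was 0.0576. With the 6 L4 arrays alone, 4 were called higher, among them msp-19 (0.5, adjusted p = 0.002) and msp-59 (0.49, adjusted p = 0.0212). Of 47 other spermatogenesis genes, 2 were higher and 9 were lower (19.1%, median -0.121). spe-44, a transcription factor that directs sperm development, read 8.49, 8.31 and 8.35 in N2 and 7.57, 7.35 and 7.30 in the mutant, with no overlap. It fell 1.97-fold (-0.98 ± 0.16, adjusted p = 0.000174), and the sperm gene smz-1 fell by 0.71 (adjusted p = 0.00544). The 9 lower genes became 2 without N2 array 3 or without lin-35(n745) array 2, and the 2 higher genes became 1 without 5 of the 6 arrays (all but N2 array 3).

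Of 52 Argonaute and RNA interference genes, 13 were higher (25.0%) and 3 were lower, the latter 1 without N2 array 2 or without lin-35(n745) array 3 and 7 with each array centred on its median. hrde-1, the nuclear Argonaute that carries silencing across germline generations, read 7.93, 8.02 and 8.04 in N2 and 9.69, 9.81 and 9.80 in the mutant, a 3.41-fold rise (1.77 ± 0.10, adjusted p = 1.02e-10). vsra-1, another Argonaute, rose by 1.78 ± 0.14, and rrf-2, an RNA-dependent RNA polymerase gene, by 1.24 ± 0.20. sid-2, a gut protein that takes up double-stranded RNA, rose by 0.82 ± 0.11, and sago-1, a secondary Argonaute, fell by 0.47.

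Innate immunity genes were mostly higher. Of 67 measured, 38 were higher (56.7%) and 7 were lower (10.4%), with a median of 0.563. irg-3, named for its response to infection, read 8.29, 8.32 and 8.4 in N2 and 11.12, 11.16 and 11.22 in the mutant, a 7.11-fold rise (2.83 ± 0.20, adjusted p = 2.69e-09). dod-22, a gene of the CUB-like class secreted by the gut, read 5.85, 5.66 and 5.45 against 8.28, 8.22 and 8.46 and rose by 2.67 ± 0.15. lys-7, a lysozyme gene of antibacterial defence, rose by 2.19 ± 0.21, and the lectin gene clec-42 by 2.47 ± 0.13. nlp-29, an antimicrobial peptide gene of the epidermis, read 8.59, 8.39 and 8.20 against 9.84, 9.70 and 9.79 and rose by 1.38 ± 0.21. The arrays of the strains stood apart for all of these genes.

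A few defence genes fell. irg-5, whose product is a further infection response protein, read 9.06, 9.19 and 9.18 in N2 and 7.74, 7.64 and 7.62 in the mutant, 2.79-fold lower (-1.48 ± 0.14, adjusted p = 9.98e-08). The lysozyme genes lys-4 and lys-6 fell by 1.41 and 1.5. lys-4 read 13.02, 13.02 and 12.99 in N2 and 11.67, 11.49 and 11.65 in lin-35(n745). clec-70 fell by 1.88 (adjusted p = 2.08e-08), beside clec-47 above.

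Most measured genes of the intracellular pathogen response, the set that worms switch on against microsporidia and the Orsay virus, were higher at L4. Of 37 measured genes of that response and of the pals family, 27 were higher (73%) and 0 were lower, with a median of 0.855. pals-6 read 4.01, 3.92 and 3.81 in N2 and 7.80, 7.81 and 7.91 in the mutant, a 15.3-fold rise (3.93 ± 0.28, adjusted p = 1.99e-09). skr-5, of the Skp1-like adaptors of ubiquitin ligases, read 5.77, 5.65 and 5.35 against 9.25, 9.33 and 9.17 and rose by 3.66 ± 0.15. eol-1 rose by 3.16 ± 0.24 and B0507.8 by 3.01 ± 0.29. The median N2 level of the 37 genes was 4, under the array's lower quartile of 4.43, where RMA values cannot be told from background, so the folds of many of them, pals-6 included, are uncertain in size. With a filter on low levels, 20 genes of the list were called higher, and 9 in place of 15 in the pals family.

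Some large gene families that mark proteins for destruction or bind foreign compounds were among the higher ones, and related families were not. Of 171 F-box A genes, substrate receptors of ubiquitin ligases, 40 were higher (23.4%) and 9 were lower (5 without N2 array 2), with a median of 0.066. Their median N2 level, 4.15, also lay under that quartile, and the filter on low levels left 24 genes called higher. fbxa-158 read 3.79, 3.57 and 3.41 in N2 and 6.18, 6.09 and 6.16 in the mutant. It rose by 2.56 ± 0.16 (adjusted p = 5.04e-10), and fbxa-163 by 2.02 ± 0.14. The F-box B genes, by contrast, had 1 of 95 higher (1.05%, against 8.24% of all genes) and 0 lower. The F-box C genes had 2 of 44 higher and 2 lower (4.55% in each direction). Their median N2 levels, 3.74 and 4.27, were under that quartile as well. Of 47 math genes, named for their MATH domain, 13 were higher (27.7%) and 0 were lower. Their median N2 level, 3.77, was under that quartile too, and the filter on low levels left 9 called higher. The bath genes, which join the MATH and BTB domains, were higher for 4 (10.5%) and lower for 9 (23.7%) of 38. Of 220 C-type lectin genes, 36 were higher and 17 were lower (10 without N2 array 2 or lin-35(n745) array 2). The higher share was above the 8.24% of all genes, while the lower share, 7.73%, was under the 8.11% of all genes.

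The glutathione S-transferases, which attach glutathione to toxic compounds, were higher for 15 of 40 (37.5%) and lower for 0, with a median of 0.218. gst-5 read 8.46, 8.59 and 8.77 against 10.19, 10.04 and 10.25, a rise of 1.56 ± 0.13 (adjusted p = 1.57e-08). gst-4, a common reporter of oxidative stress, rose by 0.97 ± 0.22. The glucuronosyltransferases, another detoxifying family, leaned the other way, with 9 of 64 higher (14.1%) and 19 lower (29.7%). ugt-26 read 8.83, 8.95 and 8.62 against 7.46, 7.63 and 7.57 and fell by 1.25, and ugt-43 rose by 1.21. cyp-35A4, a cytochrome P450 gene, fell by 1.44, and msra-1, which repairs oxidised methionine, fell 5.22-fold from 12.33, 12.43 and 12.52 to 9.94, 10.02 and 10.18. Over the whole list of 50 oxidative and xenobiotic stress genes, 10 were higher and 9 were lower (5 without lin-35(n745) array 2). As shares this was 20% and 18%, against 8.24% and 8.11% of all genes.

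Most genes that use or carry vitamin B12 and folate were lower in the mutant. Of 38 measured genes of B12, propionate and one-carbon metabolism, 25 were lower (65.8%, against 8.11% of all genes) and 1 was higher, with a median of -0.685. This list, like those on mitochondrial translation and on lysosomes below, was drawn up after the values were seen and is a description only. pmp-5, a peroxisomal type of ABC transporter implicated in B12 handling, read 11.61, 11.50 and 11.55 in N2 and 8.95, 8.73 and 8.95 in the mutant, a 6.4-fold fall (-2.68 ± 0.25, adjusted p = 1.47e-07). mtrr-1, which keeps the B12-dependent methionine synthase active, read 10.59, 10.59 and 10.63 against 9.0, 8.96 and 9.06 and fell by 1.59. The synthase gene metr-1 fell by 1.29 (SE 0.10, adjusted p = 6.41e-09), and mthf-1, which supplies its methyl groups, by 1.21.

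The list's lower genes included several of the methionine cycle and of propionate breakdown, while others of the propionate pathway were not called. folt-2, a folate transporter gene, fell from 12.04, 11.97 and 12.01 to 9.98, 9.93 and 10.02 (-2.03 ± 0.48, adjusted p = 0.00562). The S-adenosylmethionine synthetase gene sams-2 fell by 0.94, and cth-1, which makes cysteine from cystathionine, by 1.01. mmaa-1, a chaperone of the B12-dependent mutase, fell by 1.70, and hphd-1 and hach-1, of the B12-independent propionate shunt, fell by 1.83 and 1.36. nhr-114, a nuclear receptor that governs methionine cycle genes, fell by 1.75. The mutase gene mmcm-1 (-0.02 ± 0.10) and the carboxylase genes pcca-1 (0.03 ± 0.10) and pccb-1 (-0.01 ± 0.13) did not pass the test. tyms-1, which makes thymidylate for DNA from a folate, was the 1 higher gene (0.96 ± 0.11).

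The shunt's first enzyme gene, acdh-1, was not called at L4 although its arrays did not overlap. It read 13.04, 13.14 and 13.05 in N2 and 12.21, 12.07 and 12.02 in lin-35(n745), a difference of -0.98 ± 1.03 (adjusted p = 0.642). Its error in the fit includes the spread of the arrays of other stages, and a fit of the 6 L4 arrays alone gave adjusted p = 5.57e-06. nhr-68, a receptor of the same circuit, showed the same dependence (-1.04 ± 0.45, adjusted p = 0.146, against 7.11e-06 with the L4 arrays alone).

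Fat metabolism genes were lower more often than higher, though most were not called. Of 79 genes of fatty acid and lipid metabolism, 26 were lower (32.9%) and 4 were higher (2 without N2 array 1, and 9 with the L4 arrays alone), 49 were not called, and the median was -0.257. fat-7, a desaturase that makes oleic acid, read 10, 9.81 and 9.87 in N2 and 8.30, 8.32 and 8.55 in the mutant, 2.83-fold lower (-1.5 ± 0.17, adjusted p = 1.86e-06). fat-5, the palmitoyl-CoA desaturase gene, fell by 1.03, ech-6, an enoyl-CoA hydratase gene, by 1.33, and acdh-2, an acyl-CoA dehydrogenase gene, by 1.51. For acdh-2 the other probe set was not called (-0.98 ± 0.45, limma, adjusted p = 0.17). The lipase gene lipl-2 was higher (1.19 ± 0.11).

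Of 5 measured vitellogenin genes, which encode the yolk proteins that the gut makes as adulthood begins, 4 were lower and the median was -1.72. vit-2 read 5.31, 5.55 and 5.56 in N2 and 3.6, 3.82 and 3.84 in the mutant, 3.29-fold lower (-1.72 ± 0.30, adjusted p = 0.000298). The mutant values of vit-2 lay under the lower quartile of 4.43, so the size of its fall is uncertain. vit-6 fell by 1.34, and vit-4 and vit-5 by 2.35 each. Other probe sets gave other sizes, -2.07 ± 0.44 for vit-6, and -2.32 ± 0.44 and -0.47 ± 0.12 for vit-4. The yolk genes are near-identical copies, and probe sets of vit-4 and vit-5 can bind RNA of either, so these 2 are not separate measurements. In N2, vit-2 was 1.04 ± 0.30 higher at L4 than at L1 (shared N2 L4 arrays), and the adult-onset collagen gene col-19 was lower beside it in the mutant (-1.35 ± 0.15). The yolk difference was not confined to L4, as 4 of the 5 genes were also lower at L1 (median -1.44). For 0 of them was the strain difference at L4 called different from that at L1, and 0 were called in embryos. A part of stage timing in the yolk difference was not tested.

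Mitochondrial ribosome genes fell by modest amounts in large number. Of 59 genes of the mrpl and mrps families, joined after the values were seen, 40 were lower (67.8%) and 0 were higher, with a median of -0.433. mrps-21 read 7.95, 7.91 and 7.77 in N2 and 6.88, 6.63 and 6.62 in the mutant, 2.24-fold lower (-1.17 ± 0.13, adjusted p = 1.95e-06). mrps-18B fell by 0.80 and mrpl-49 by 0.75. The 59 measured genes of the cytosolic ribosome stood apart from them, with 0 called by limma in either direction, also 0 at an unadjusted p under 0.05, and 1 called lower with array weights. Their median was -0.0072, and rpl-5 showed a difference of -0.17 ± 0.08 (adjusted p = 0.232).

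Other mitochondrial genes leaned the same way. Of 29 genes of mitochondrial translation factors, import and quality control, 21 were lower (72.4%) and 1, the protease subunit gene clpp-1, was higher (0.61 ± 0.09). The other probe set of clpp-1 was not called (0.04 ± 0.12, limma, adjusted p = 0.9). hsp-60, the matrix chaperonin, read 11.70, 11.93 and 12.06 in N2 and 10.90, 11.04 and 11.16 in the mutant, 1.82-fold lower (-0.86 ± 0.13, adjusted p = 9.94e-05). The elongation factor genes gfm-1 and tufm-1 fell by 0.70 and 0.65, and mppa-1, of the peptidase that trims imported proteins, by 0.75. The chaperone gene hsp-6 did not pass the test (-0.07 ± 0.14). The 21 lower genes became 10 without N2 array 1 or lin-35(n745) array 2, 11 without N2 array 2 and 13 without N2 array 3.

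Respiration genes moved less. Of 52 measured, 9 were lower and 1 was higher, with a median of -0.17, and the 9 became 4 without lin-35(n745) array 2 and 5 without any one of the N2 arrays. The lower share was 17.3%, against 8.11% of all genes, and the higher share 1.92%, against 8.24%. dld-1, a shared subunit of the matrix dehydrogenases, fell by 0.68, and mdh-2, the malate dehydrogenase gene, by 0.57. For mdh-2 the other probe set was not called (-0.29 ± 0.17, limma, adjusted p = 0.332). ucr-2.3, a core subunit gene of complex III, rose instead, from 10.18, 10.16 and 10.11 to 11.41, 10.97 and 11.13 (1.02 ± 0.14, adjusted p = 2.2e-05).

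**Figure D4:**
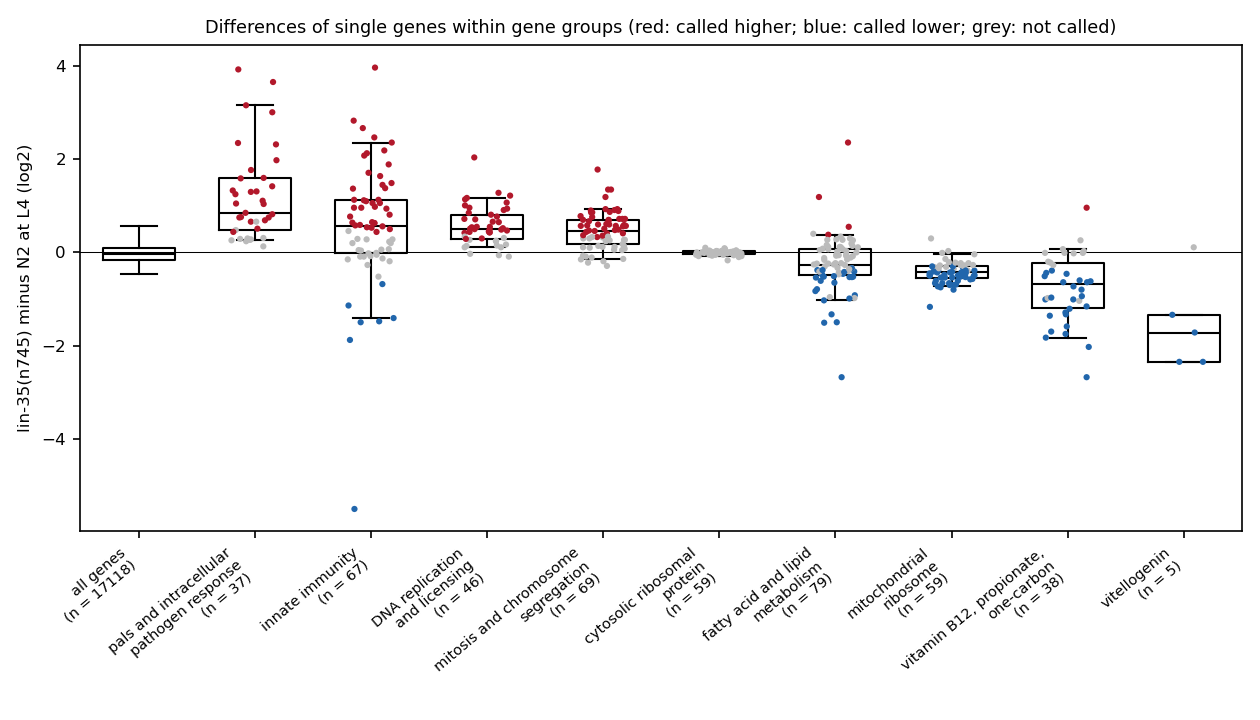
Strain difference at L4 (log2, lin-35(n745) minus N2) of the genes of each group; points are genes, boxes span the quartiles and whiskers the 5th to 95th percentile. The boxes of DNA replication and mitosis lie above 0, those of the mitochondrial ribosome and of B12 and one-carbon genes below, and the cytosolic ribosomal protein genes centre on -0.0072.

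Intestinal genes were called in both directions at more than the background share, 14 of 63 higher (22.2%) and 10 lower (15.9%). spp-8, a saposin-like gene, read 9.54, 9.58 and 9.30 in N2 and 11.42, 11.47 and 11.46 in the mutant, a rise of 1.98 ± 0.13. The cathepsin B-like protease gene cpr-3 rose by 2.05 ± 0.12 and dod-24 by 2.74 ± 0.22. The aspartyl protease gene asp-13 read 11.52, 11.44 and 11.46 against 10.41, 10.33 and 10.34 and fell by 1.12. Of 58 genes of insulin signalling and its DAF-16 targets, 11 were higher and 7 were lower (4 without N2 array 2 or 3, and 3 without lin-35(n745) array 2). ins-35, an insulin-like peptide gene, rose by 2.09 ± 0.14, and dod-23 by 2.52 ± 0.15.

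Among 41 heat shock and protein folding genes, 4 were higher (2 without N2 array 3 or lin-35(n745) array 3) and 7 were lower (4 without N2 array 1, N2 array 2 or lin-35(n745) array 3, and 12 with the L4 arrays alone). The higher share, 9.76%, was near the 8.24% of all genes, and the lower share was 17.1%, against 8.11%. The small heat shock genes hsp-16.2 and hsp-12.3 fell by 1.3 and 1.46, and hsp-43, of the same family, rose by 0.88. hsp-12.3 read 6.65, 6.62 and 6.56 in N2 and 5.17, 5.05 and 5.24 in the mutant.

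Genes of the cuticle and the epidermis were lower in places. Of 66 genes of the hypodermis, its seam cells and molting, 11 were lower (16.7%, or 6 genes without lin-35(n745) array 2) and 3 were higher (1 without N2 array 1, N2 array 2 or lin-35(n745) array 2). With the L4 arrays alone, 17 were lower and 8 higher. nas-37, a protease needed to shed the old cuticle, read 9.1, 9.43 and 9.41 in N2 and 8.57, 8.45 and 8.5 in the mutant, a fall of 0.81 (adjusted p = 0.00131). The hedgehog-related gene wrt-2 fell by 0.68. rnt-1, a Runx factor that drives seam cell division, rose 2.04-fold (1.03 ± 0.10, adjusted p = 4.43e-07). Of 20 collagens of defined function, 7 were lower (35%, against 8.11% of all genes) and 0 were higher, and without any single array 2 to 4 of them were lower.

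The col family of collagens held 9 higher (7.03%) and 16 lower genes (12.5%) of 128, and their balance depended on the fit, with 25 higher and 21 lower for the L4 arrays alone and 25 and 22 with array weights. col-181 read 8.79, 8.93 and 8.93 in N2 and 6.85, 6.76 and 6.91 in the mutant, 4.11-fold lower (-2.04 ± 0.13, adjusted p = 6.64e-10), and col-81 fell by 1.79. col-176 went the other way (1.01 ± 0.10). col-19, which worms switch on at the change from larva to adult, read 5.49, 6.06 and 5.81 against 4.48, 4.42 and 4.40 and fell by 1.35 (SE 0.15, adjusted p = 1.33e-06). In N2, col-19 was 1.57 ± 0.15 higher at L4 than at L1, col-181 3.49 higher and col-81 2.61 higher, again with shared N2 L4 arrays.

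The higher calls among timing genes were not stable. Of 24 heterochronic genes, which order the events of larval development, 2 were lower (8.33%, against 8.11% of all genes), col-19 and the RNA-binding gene nhl-2 (-0.70 ± 0.16), and 1 was left after the filter on low levels. Another 4 were higher (16.7%, against 8.24%), but 0 of these were called without N2 array 1, N2 array 2 or lin-35(n745) array 2 or 3, and 1 without N2 array 3, and centring each array on its median also left 0. lin-28, which holds early larval fates, read 6.36, 6.50 and 6.41 in N2 and 6.26, 6.68 and 6.74 in the mutant (0.14 ± 0.14, adjusted p = 0.634). lin-29, which drives the adult switch of the epidermis, differed by -0.16 ± 0.18 (adjusted p = 0.677), and the L4 collagen gene col-38 by -0.29 ± 0.13 (adjusted p = 0.164). The arrays of the strains overlapped for lin-28 and lin-29.

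Vulval, muscle, pharyngeal and neuronal genes were called at or under the background share. Of 62 genes of vulval induction and morphogenesis, 2 were higher (1 without N2 array 1 or 3, or lin-35(n745) array 2 or 3, and 6 with the L4 arrays alone) and 1 was lower (2 without lin-35(n745) array 1 and 0 without any other array). sqv-4, a sugar nucleotide enzyme needed to open the vulva, rose by 0.73 ± 0.09, and lin-3, the signal of vulval induction that synMuv genes are known to restrain, differed by 0.05 ± 0.11 (adjusted p = 0.861). Of 53 body wall muscle genes, 1 was higher (0 without N2 array 3) and 2 were lower. These were alp-1 (-0.46 ± 0.11) and tnt-4, a troponin T gene (-0.45 ± 0.11), the latter also the 1 lower gene of 31 in the pharynx. A second probe set of alp-1 was not called (0.07 ± 0.15, limma, adjusted p = 0.848). Of 89 neuronal genes, 3 were higher (1 without N2 array 1 or lin-35(n745) array 2, 0 without N2 array 3, and 6 with the L4 arrays alone). Of 32 genes of the male and of sex determination, 1 was higher and 1 lower. The higher one lost its call without N2 array 1, N2 array 3 or lin-35(n745) array 1 or 2, and the lower one without N2 array 3.

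The L4 difference was set against the strain difference in L1 larvae and in embryos, which used other arrays. Of the 1411 genes higher at L4, 734 were higher at L1 as well, 52% of the L4 genes and 49.2% of the 1492 L1 genes (8.72% of all genes). Of the 1388 lower genes, 330 were lower at L1, 23.8% of the L4 genes and 28.3% of the 1166 L1 genes (6.81% of all). Embryos, with 1067 genes higher (6.23%) and 705 lower (4.12%), shared 441 of the higher genes (31.3% of the L4 and 41.3% of the embryonic genes) and 143 of the lower ones (10.3% and 20.3%). A gene was called in opposite directions at L4 and L1 for 50 of the genes higher at L4 and 26 of those lower at L4.

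The change of the strain difference between stages was tested as an interaction. Against L1, the difference at L4 was called more positive for 592 genes (3.46%) and more negative for 636 (3.72%), and against embryos for 709 (4.14%) and 715 (4.18%). As probe sets these counts were 764 and 751 against L1 (3.39% and 3.33%, in all 6.72%) and 867 and 879 against embryos (3.85% and 3.9%, in all 7.74%). Higher at L4 and more positive than at both other stages were 221 genes, and 159 were lower and more negative than at both. Of the 67 immunity genes, 23 were more positive at L4 than at L1 and 6 more negative. The intracellular pathogen response genes went the other way, with 2 of 37 more positive at L4 and 19 more negative. Of these 37, 34 were higher at L1, where the median difference was 2.34 against 0.855 at L4. Among the immunity genes, irg-3, for example, differed by 0.17 at L1 and by 0.29 in embryos (adjusted p = 0.646 and 0.47), and dod-22 by 0.39 and 0.20. asp-12 differed by -0.04 at L1 (adjusted p = 0.9).

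Cell cycle and germline genes compared differently. For DNA replication genes, 37 were higher at L1 and 12 in embryos, against 33 at L4, and 0 were more positive at L4 than at L1 and 3 more negative. Of 46 P granule and germline genes, 0 were more positive at L4 and 8 more negative, and of 41 meiosis genes 0 and 12. pgl-3 was higher by 4.81 at L1, 1.63 in embryos and 1.98 at L4, and him-3 by 4.48 at L1 and 1.27 at L4. In N2 both genes were higher at L4 than at L1, by 2.88 ± 0.10 for pgl-3 and 4.01 ± 0.12 for him-3, so that the wild-type level against which the mutant is set was itself higher at L4. pud-3 and pud-4, which respond to insulin signalling, fell at L4 by 2.22 and 2.06 and at L1 by 5.07 and 4.75. rnh-1.3 was higher at every stage, by 4.20 at L1 and 2.32 in embryos.

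**Figure D5:**
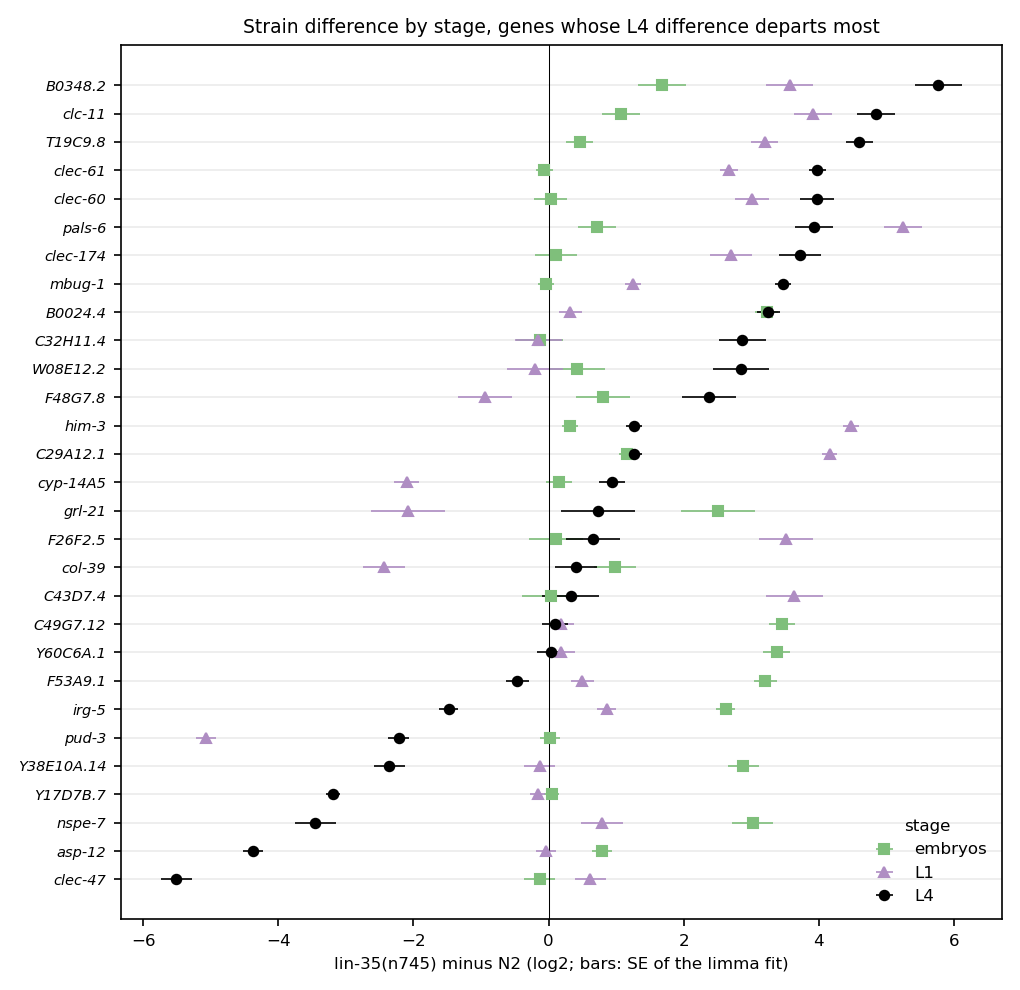
Strain difference (log2, lin-35(n745) minus N2) of 29 genes in embryos, L1 larvae and L4 larvae, with bars for the standard error (n = 3 arrays a strain). B0348.2 and clc-11 are above 0 at all 3 stages, him-3 is farthest above 0 at L1, and clec-47 (-5.51) and asp-12 (-4.37) are far below 0 at L4.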

How the data were processed

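Total RNA (2.5 ug) of synchronized populations was made into biotin-labelled cRNA and hybridised to Affymetrix arrays, 1 sample an array, per the labels' protocols. The deposited values were made by the authors with RMA, per the submitters' processing notes, and are 1 log2 value per probe set and array. RMA corrects background, normalizes by quantiles and summarises probes; its settings and log base are not given in the sources used, and the base was read from the range of the L4 values (2.66 to 15.02). RMA gives no detection call. With 3 arrays a group, precision is limited by their number.

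From there, 77 control probe sets were left out and 22548 tested with limma 3.58.1 (R 4.3.3) in a linear model of all 18 arrays with 6 groups (lmFit, eBayes, 12 residual and 7.66 prior degrees of freedom), with Benjamini-Hochberg adjustment and a threshold of 0.05. The fit was tested on simulated data with changes set at L4. It recovered 57.5% of changes of -0.5, 55% of those of 0.5, and 95% of those of -1 and of 1. Of its 165 calls, 4 were false. The simulation held far fewer changes than the real comparison, where 3438 probe sets were called, so its adjusted threshold was stricter. Its noise was drawn independently, with equal spread at all stages. Its shares therefore do not give the recovery in the real data. A gene that was not called can still differ. Pooling the spread over 6 groups makes the error of a gene depend on how it varies at the other stages. Groups and replicate numbers came from the titles.

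Probe sets were named through GEO's platform annotation, which gives 1 gene for 20766 (20701 of them found in RefSeq's gene table, WBcel235), several for 887 and none for 895. For each of 17118 genes, the probe set brightest on average across the 18 arrays stands for it. Of 483 called genes with several probe sets, 239 had all of them called the same way, and cdc-14 had probe sets called in opposite directions.

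The members and lists were chosen with earlier results of these data known, and 3 lists and the joined mitochondrial ribosome families after the values were seen. Named genes are the 25 largest differences in each direction, the 5 largest in each list and direction, the leading members of families of 10 or more genes, the 8 largest interactions in each direction, and fixed markers. Alternatives were other normalization, filters, array weights, an intensity trend, a replicate block, the L4 arrays alone, the median of probe sets, and leaving out each array.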

Additional observations from a re-analysis of the deposited data

Results flagged for a closer look

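The strain difference changed between stages for the genes below, each by the interaction term of the limma fit (adjusted over 22548 probe sets). They are the 8 largest changes in each direction, so their size is partly the result of that choice.

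Against L1, the difference at L4 was more negative by the following amounts, in log2 units. It was -6.12 for clec-47 (SE 0.33), -4.33 for asp-12 and -4.24 for nspe-7, which were lower at L4 and not called at L1. Y17D7B.7, of the same pattern, was at -3.03. him-3 (-3.22) and C29A12.1 (-2.89) were higher in the mutant at both stages, and by less at L4. C43D7.4 (-3.31) and F26F2.5 (-2.85) were higher at L1 by 3.64 and 3.51 and were not called at L4, where a fit of the L4 arrays alone called both higher (0.33 and 0.66, adjusted p = 0.0275 and 0.000355).

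More positive at L4 than at L1 were F48G7.8 (3.32), W08E12.2 (3.05), cyp-14A5 (3.04), C32H11.4 (3.02) and B0024.4 (2.92), all higher in the mutant at L4. pud-3 (2.85) was lower at both stages, and by less at L4. The collagen gene col-39 (2.84) and grl-21 (2.81), of the ground-like family, were lower at L1 by 2.43 and 2.08 and not called at L4, where the L4 arrays alone called both higher (0.41 and 0.73, adjusted p = 0.00692 and 0.000104, limma).

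Against embryos, the most negative changes were -6.47 for nspe-7, -5.38 for clec-47, -5.23 for Y38E10A.14 and -5.15 for asp-12. nspe-7 and Y38E10A.14 were higher in mutant embryos and lower at L4. irg-5 was at -4.1, with a strain difference of 2.62 in embryos and -1.48 at L4. F53A9.1 (-3.67), C49G7.12 (-3.36) and Y60C6A.1 (-3.34) were higher in mutant embryos by 3.21, 3.46 and 3.38 and were not called at L4. With the L4 arrays alone, F53A9.1 was called lower there (-0.46, adjusted p = 0.00539, limma).

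The most positive changes against embryos were found for T19C9.8 (4.15), B0348.2 (4.09), clec-61 (4.03), clec-60 (3.94), clc-11 (3.78), clec-174 (3.61), mbug-1 (3.51) and pals-6 (3.21), all among the 25 largest rises at L4. B0348.2 and clc-11 were also higher in embryos (1.68 and 1.07), and clec-60, clec-61, clec-174, mbug-1, T19C9.8 and pals-6 were not called there. With 3 arrays a group, single arrays were not tested for standing apart.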

How the results depend on the processing

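The numbers of called probe sets at L4 kept within 1.5 times under centring of each array (1590 higher, 2108 lower), further quantile normalization (1755 and 1884), a filter on low levels (1685 and 1617), an intensity trend (1752 and 1698) and the 6 L4 arrays alone (2382 and 2433). Array weights moved them, to 3037 higher and 3650 lower (6687 in all), and moved the L4 change against embryos to 1543 and 1555 (3098 in all). The weights ran from 0.83 to 3.83 on the L4 arrays, both in lin-35(n745), and the cause was not tested. Leaving out 1 array gave 1338 to 1503 higher and 1070 to 1442 lower probe sets at L4 (2548 to 2931 in all), 1072 to 1299 for the change against L1 and 1350 to 1606 against embryos. The lowest number of lower ones, 1070, came without lin-35(n745) array 2, with fewer samples in the fit. The lin-35 transcript stayed at -1.21 to -1.29 without each array. With the replicate number as a block, 1773 were higher and 1563 lower. Same-numbered samples deviated together with correlations of 0.269, 0.0547 and 0.0558, and N2 array 3 correlated best with lin-35(n745) array 2 (0.181), so the numbers were not taken as pairs. None of the named genes reversed direction under the alternatives run, while 886 of their comparisons with an alternative lost the call and 35 gained one, 13 of these with the L4 arrays alone and 20 with array weights. Of the counts by list or family, 440 moved by more than 1.5 times and 2416 did not. Values under 4.43, the lower quartile, may be background, so folds of genes that low are limits of the array as much as of the RNA.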

Other observations

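Lysosomal and autophagy genes, a list drawn up after the values were seen, were higher for 16 of 46 (34.8%, against 8.24% of all genes) and lower for 4 (2 without lin-35(n745) array 2), with a median of 0.179. The lower share, 8.7%, was near the 8.11% of all genes. asm-3, an acid sphingomyelinase gene, read 5.97, 5.72 and 5.78 in N2 and 7.59, 7.71 and 7.68 in lin-35(n745), a rise of 1.84 ± 0.19 (limma, adjusted p = 4.96e-07). The acid ceramidase genes asah-1 and asah-2 rose by 1.02 ± 0.13 and 1.45 ± 0.16, lgmn-1, a legumain-like protease gene, by 1.88 ± 0.13, and nuc-1, the lysosomal nuclease that digests the DNA of dead cells, by 1.00 ± 0.10. Among autophagy genes, lgg-1 (0.46), lgg-2 (0.48) and sqst-1 (0.85) were higher too, and aman-1, a lysosomal mannosidase gene, fell by 0.67. Of 12 genes of the atg family, 0 were called in either direction (-0.14 to 0.31), though atg-9 was called higher with the L4 arrays alone (0.31). The genes bec-1, lmp-1, lmp-2 and cpl-1 were not called either. A second probe set of lgg-2 was not called (0.24 ± 0.10, limma, adjusted p = 0.15). Against L1, 8 of the 46 were more positive at L4 and 0 more negative. asm-3, asah-1, asah-2 and nuc-1 were not called at L1, where they differed by -0.46, -0.11, -0.21 and -0.08.

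Called genes were spread over all chromosomes of the nucleus. On the X chromosome 124 of 2352 genes were higher (5.27%) and 220 lower (9.35%), while on the autosomes 1285 of 14718 were higher (8.73%) and 1165 lower (7.92%). Among 17078 genes in chromosomal order, 2794 of them called, 63 runs of 3 or more neighbours were called in 1 direction, 42 higher and 21 lower. These runs held 219 of the called genes, and how many runs would arise without clustering was not tested. The longest held 7 genes, and one of these, on chromosome II, begins with math-41, math-40 and math-39. The lectin genes clec-62 to clec-66 made a higher run of 5 on chromosome II, and nlp-31, nlp-30, nlp-29, nlp-28 and nlp-27, antimicrobial peptide genes of the epidermis, one on chromosome V. dod-22 and mbug-1 lay in another on chromosome IV. Neighbours in such clusters are often similar copies, and their probe sets may share RNA, so the members of a run are not separate measurements.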
